A study of Homo sapiens with 9 samples.

Results

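Trimethylated lysine 9 of histone H3 (H3K9me3) was described in mdig knockout (KO) BEAS-2B cells and in their wild-type (WT) counterparts, as the stretches of enriched sequence, called islands, that were deposited for each library. The islands were those named as H3K9me3 KO or H3K9me3 WT in the deposited file, on chromosomes 1 to 22 and X. They came to 32257 islands in KO and 12090 in WT, 44347 of the 141489 islands listed for all 8 libraries. BEAS-2B is an established line of immortalised human bronchial epithelial cells. The KO cells were a CRISPR-Cas9 colony without mdig protein, from a guide against exon 3, and the WT cells were colonies that kept mdig after going through the same targeting. Both grew in DMEM with 5% serum and blasticidin. ChIP-seq was run on 4 marks (H3K9me3, H3K27me3, H3K4me3 and H3R8me2a), with 1 library per mark and genotype and an input from WT cells. With 1 library per genotype no difference below had a replicate check and none was tested. Per the study's methods, tags of the samples compared were randomly sampled down to the smallest sample for the signal maps, and whether islands were called on the sampled tags is not stated. The islands carry no height and no read number, so the number of reads behind them is unknown, and genotype, colony and yield of the immunoprecipitation cannot be told apart.

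H3K9me3 is the mark of constitutive heterochromatin. It is written by SUV39H1, SUV39H2 and SETDB1, and the chromodomain proteins CBX1, CBX3 and CBX5 bind it and help it spread from nucleosome to nucleosome. In human cells it also lies over the genes of KRAB zinc finger proteins, which are themselves recruiters of SETDB1 through TRIM28. Mdig, encoded by RIOX2, is a JmjC-domain oxygenase, and the comparison asked where H3K9me3 lay in cells without it. RIOX2 itself, on the minus strand of chr3:97660662-97691301 (GRCh37/hg19, as all coordinates here), had no H3K9me3 island in KO or in WT. Its start lay under H3K4me3 for 2.90 kb in KO and 2.70 kb in WT, and islands cannot show an edited exon.

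The 4 stretches of 200 bases printed next stand for the kinds of island described later, each from the GRCh37 sequence, with CpG pairs in capitals. The first is the centre of the longest WT island, chr15:25443201-25443400, within SNHG14 and outside its annotated exons, and was covered in both libraries. The second, chr5:501501-501700 in an intron of SLC9A3, and the third, chr3:126803601-126803800, between genes, were covered in KO alone. The fourth, chr1:247242114-247242313 on the minus strand, lies directly upstream of the shared start of ZNF670 and ZNF670-ZNF695 and was covered in KO alone. The 3 stretches covered in KO alone had 65.5%, 60.5% and 60.5% GC, against 57.0% in the one covered in both libraries.
KO and WT, SNORD115 cluster: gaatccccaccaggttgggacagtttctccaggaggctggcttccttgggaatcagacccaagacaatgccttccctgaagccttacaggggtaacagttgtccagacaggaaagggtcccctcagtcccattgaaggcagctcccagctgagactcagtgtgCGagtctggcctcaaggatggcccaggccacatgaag
KO alone, SLC9A3: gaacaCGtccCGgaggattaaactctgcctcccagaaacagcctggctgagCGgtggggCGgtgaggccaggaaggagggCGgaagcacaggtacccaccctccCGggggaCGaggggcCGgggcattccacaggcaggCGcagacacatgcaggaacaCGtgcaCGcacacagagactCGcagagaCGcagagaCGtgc
KO alone, filled gap: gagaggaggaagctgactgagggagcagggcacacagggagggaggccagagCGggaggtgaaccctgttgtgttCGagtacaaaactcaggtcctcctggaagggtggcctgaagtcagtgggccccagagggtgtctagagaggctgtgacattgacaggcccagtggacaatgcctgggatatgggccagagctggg
KO alone, upstream of ZNF670: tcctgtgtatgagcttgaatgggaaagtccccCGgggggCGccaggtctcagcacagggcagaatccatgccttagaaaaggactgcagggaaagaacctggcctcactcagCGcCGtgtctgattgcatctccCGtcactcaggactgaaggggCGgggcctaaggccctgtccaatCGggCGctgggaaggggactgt

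All island edges fell on multiples of 200 bp, and the narrowest gap between neighbours was 800 bp in each library. The H3K9me3 labels fitted the mark in both libraries, since islands covered on average 49.2% of zinc finger gene bodies in KO and 33.7% in WT, against 8.72% and 2.41% of all protein-coding gene bodies. H3K4me3 lay at the start of 5 of 8 epithelial marker genes (KRT7, KRT8, KRT18, EPCAM and CDH1) and 7 of 7 mesenchymal ones in either genotype, and at 2 of 7 airway genes in KO and 3 of 7 in WT. There was none in KO or WT at KRT19, KRT5, CLDN4, FOXA2, SCGB1A1, MUC5AC and TP63. Of the leukocyte genes PTPRC, CD3E and SPI1 had none, and CD14 had 2.12 kb in KO and 1.92 kb in WT. The endothelial gene KDR had 1.6 kb in KO and 2.2 kb in WT, and CDH5 had none. The track lines of the file number the H3K9me3 KO library 93, next to the H3R8me2a libraries of KO (95) and WT (94). They number the H3K9me3 WT library 76, next to those of H3K4me3 and H3K27me3 (72 to 75). What these numbers stand for is not stated. In the other 3 marks KO and WT have neighbouring numbers, so in H3K9me3 genotype and this numbering cannot be told apart.

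H3K9me3 islands were longer in KO than in WT as well as more numerous. The mean island was 6.04 kb in KO and 4.36 kb in WT, the median 4.40 kb and 3.40 kb, and the longest 193.8 kb and 57.8 kb. The 99th percentile was 28.8 kb in KO and 18.8 kb in WT. The difference grew with length. Islands under 2 kb numbered 3089 in KO and 1774 in WT (1.74 times), those of 5 to 10 kb 10206 and 2799 (3.65 times), those of 10 to 20 kb 3441 and 504 (6.83 times), and those of at least 50 kb 62 and 2. Islands of at least 10 kb carried 36.8% of the covered bases in KO and 18% in WT. Island number was 2.67 times and mean length 1.39 times that of WT. The mean and the median island were longer in KO on each of the 23 chromosomes. Chromosome 20 had the longest islands, with a mean of 9.73 kb in KO and 5.46 kb in WT. Chromosome X was near the other end, with 4.10 kb in KO and 3.48 kb in WT.

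Among the other marks, H3K27me3 islands were also longer in KO but not more numerous. The mean H3K27me3 island, the mark of Polycomb repression, was 1.38 times as long in KO, close to the 1.39 times of H3K9me3, but there were 0.967 times as many. H3K4me3 islands, at active starts, were 1.13 times and H3R8me2a islands 1.16 times as long. H3K9me3 was the mark with the largest KO over WT ratio of covered bases, 3.70, against 1.61 for H3R8me2a, 1.33 for H3K27me3 and 1.15 for H3K4me3.

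**Figure D1:**
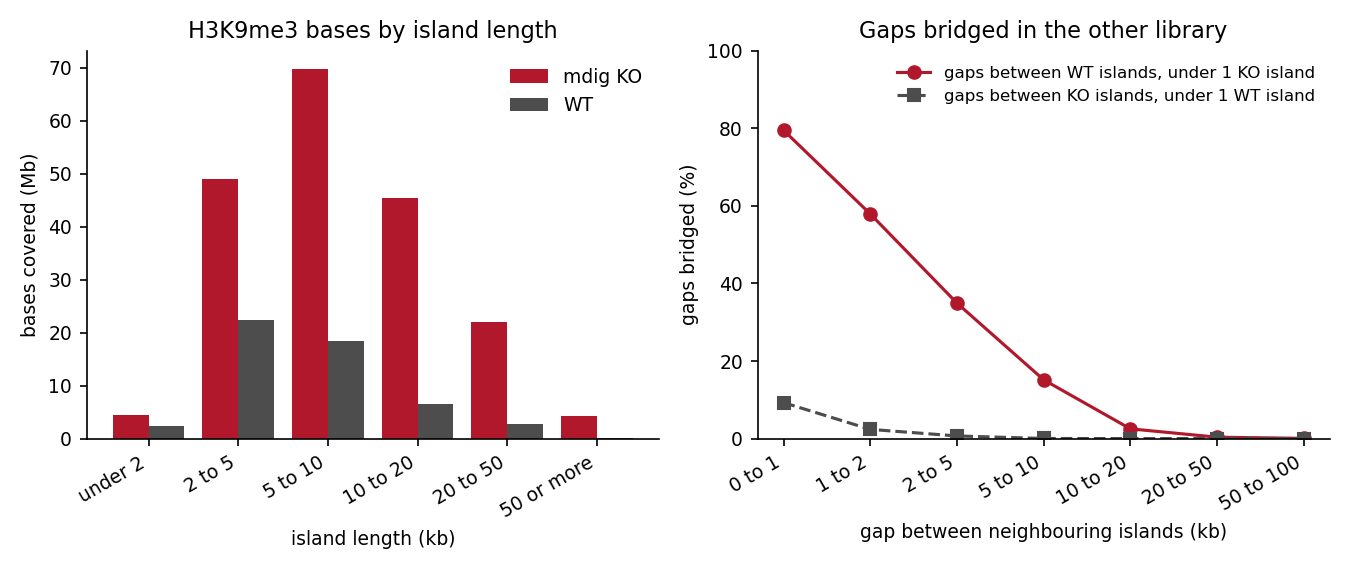
Left, Mb of sequence under H3K9me3 islands of each length class (kb) in mdig KO and WT cells, 1 library each. Right, share of the gaps between neighbouring islands of 1 library that lay wholly under 1 island of the other library, by the width of the gap (kb). KO is above WT in each length class, and KO islands bridged 79.5% of the WT gaps of up to 1 kb while WT islands bridged 9.28% of such KO gaps.

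Most of the bases covered in KO lay in islands that had no WT counterpart. Of 194.9 Mb covered in KO, 44.6 Mb (22.9%) were also covered in WT. A further 34.2 Mb (17.5%) were the parts of KO islands that reached past the WT islands they touched. The remaining 116.1 Mb (59.6%) were in the 22563 KO islands that touched no WT island. Conversely 84.6% of the WT bases were covered in KO, 6.90% lay in WT islands that a KO island touched but did not fully cover, and 8.45% were in the 1507 WT islands without a KO island. KO islands without a WT island were shorter than those with 1, with medians of 4.00 kb and 5.80 kb. WT islands without a KO island were shorter too, with a median of 2.40 kb against 3.6 kb for the matched ones. The share of WT islands that a KO island touched went up with their length, from 60.8% of those under 1 kb to 97.7% of those of 10 kb or more. The median distance of the unmatched KO islands to the nearest WT island was 65.4 kb, 1711 of them (7.58%) lay within 5 kb of one and 8803 (39.0%) more than 100 kb away.

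The longest KO islands without a WT island lay over genes of varied function. They were a 60.8 kb island at chr20:31601401-31662200 over BPIFB2, BPIFB6 and BPIFB3, secreted lipid-binding proteins of the BPI family, and a 53.2 kb island at chr5:475001-528200 over SLC9A3, a sodium-proton exchanger of epithelia. An island of 53.0 kb lay in CAMTA1, one of 48.6 kb in IQSEC3 and one of 47.2 kb in FGD3. Their GC content was 52.2% to 61.0%. The longest WT islands without a KO island were shorter, 13.6 to 19.4 kb, with 40.8% to 44.7% GC. One was a 19.4 kb island at chr16:32611401-32630800 with no protein-coding gene. The others included 2 in FBXL7 on the short arm of chromosome 5 (15 and 13.8 kb) and 1 of 13.6 kb in ZNF229.

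Where a WT island was kept, the KO island was usually wider on both sides. Of 10583 WT islands that a KO island touched, 5816 (55.0%) had KO sequence past both edges and 426 (4.03%) lay past the KO edges on both sides. The median edge stood 1.00 kb further out in KO, on the left as on the right, and the KO span was 1.70 times the WT length at the median. Each WT island was set against the outer edges of all KO islands that touched it. For the 2011 WT islands in KO islands that touched 2 or more, sequence of neighbouring WT islands thus counted as growth. Edges moved further in GC-rich sequence. The median was 0.4 kb at WT islands under 40% GC and 1.40 kb at those of 50% GC or more, where 67.3% had grown on both sides against 39.0%. H3K27me3 edges stood 1.60 kb further out in KO, H3R8me2a edges 0.4 kb and H3K4me3 edges 0.2 kb, a single step of the grid.

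By count, joining of neighbouring islands went mainly in 1 direction. In KO 837 islands held 2 or more WT islands (held means touched by at least 1 base), 639 of them 2 and 198 of them 3 or more, and together they took in 2011 WT islands (16.6%). In WT 276 islands held 2 or more KO islands, and no WT island held more than 3. Joins thus outnumbered splits 3.03 times, and did so on each of the 23 chromosomes. KO had more islands in all, and as shares the 837 were 2.59% of KO islands and the 276 were 2.28% of WT islands. The ratio of joins to splits was 3.17 in H3K27me3, 1.77 in H3K4me3 and 0.943 in H3R8me2a. The splits were the less stable count. Where at least 50% of the held island had to lie under the other, 739 joins and 86 splits were left, and 674 joins and 82 splits once islands within 1 kb were merged.

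Narrow gaps were filled more often than wide ones. Of the 678 gaps of up to 1 kb between WT islands, 539 (79.5%) lay under 1 KO island. The share was 57.9% at 1 to 2 kb, 34.9% at 2 to 5 kb, 15.2% at 5 to 10 kb and 2.52% at 10 to 20 kb. Of 5255 WT gaps over 100 kb none was filled. Gaps between KO islands lay under 1 WT island in 9.28% of cases up to 1 kb and in 2.38% at 1 to 2 kb. GC content went with filling at equal width. Of WT gaps of 5 to 10 kb, 29.2% of the 240 with at least 45% GC were filled, against 8.76% of the 525 with less. The widest filled gap was 53.0 kb at chr3:126777201-126830200, between genes, and the next was 44 kb at chr12:132890201-132934200 in GALNT9, an enzyme of mucin-type glycosylation. The others among the 5 widest were 31.4 kb in HDAC4, 29.4 kb over KIF25 and FRMD1, and 24.6 kb in CACNG4.

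Joined islands touched zinc finger genes more often than other KO islands did, though most lay elsewhere. They were also longer, with a median of 16.4 kb against 4.4 kb for all KO islands. Island length and WT cover were not held equal in this comparison. Of the 837 KO islands that held 2 or more WT islands, 243 (29.0%) touched a zinc finger gene and 594 did not. Of those that held 3 or more, 113 of 198 (57.1%) touched a zinc finger gene and 91 (46.0%) were on chromosome 19, against 2.99% and 5.54% of all KO islands. Without chromosome 19, 624 joins and 220 splits remained. The 5 longest KO islands all lay over such genes. The longest, 193.8 kb at chr12:133559001-133752800, spanned ZNF26, ZNF84, ZNF140, ZNF891 and ZNF10 near the end of the long arm and held 12 WT islands of 1.80 to 49.6 kb, with gaps of 0.8 to 1.40 kb. WT islands already covered 91.8% of it. An island of 93.8 kb over CHFR and ZNF605 was its neighbour. On chromosome 19, an island of 143.6 kb over ZNF606, ZSCAN1, ZNF135, ZSCAN18 and ZNF329 held 12 WT islands and one of 126.6 kb over ZNF329, ZNF274 and ZNF544 held 4. ZNF678 on chromosome 1 lay in an island of 116.6 kb that held 8. The largest number, 14, was under the 82.8 kb island at chr19:52800801-52883600 over ZNF480, ZNF610 and ZNF880. There the WT islands were 1.40 to 11 kb long and the gaps 0.8 to 3.6 kb wide, and 71.3% of the KO island was covered in WT. Among all 4300 KO islands of at least 10 kb, 2224 touched a WT island and 2076 touched none.

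**Figure D2:**
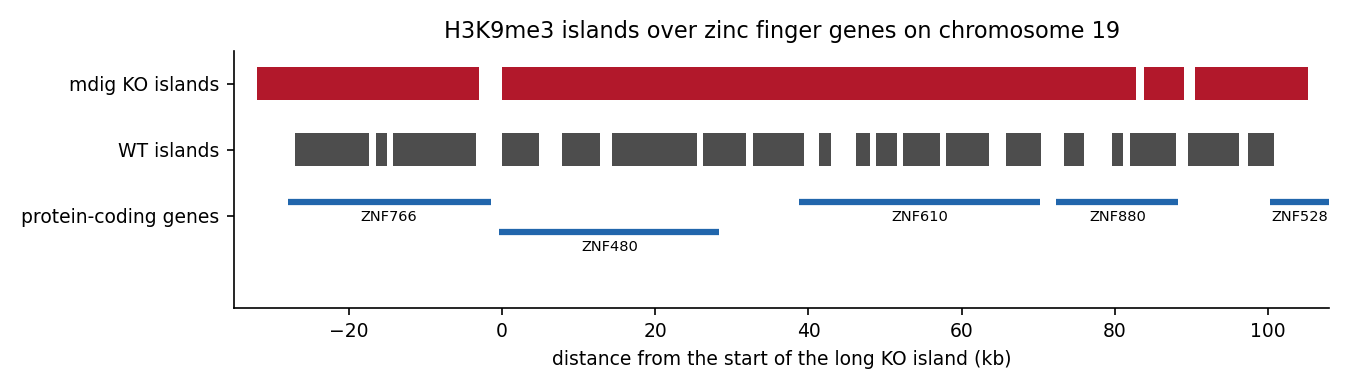
H3K9me3 islands of mdig KO (top) and WT (middle) and protein-coding genes (bottom) on chromosome 19, by distance in kb from the start of the KO island that holds the most WT islands. The KO island of 82.8 kb touches 14 WT islands, the last of which also touches the next KO island.

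Long WT islands were kept in KO. The longest, 57.8 kb at chr15:25414401-25472200, covered 27 annotated SNORD115 genes within the host transcript SNHG14, the imprinted small nucleolar RNA cluster of the Prader-Willi region, and was wholly covered in KO. A WT island of 48.2 kb over 20 SNORD116 genes of the same transcript was covered for 46.6 kb in KO. A WT island of 51.4 kb over ZNF544 and one of 49.6 kb over ZNF140, ZNF891 and ZNF10 were covered in full in KO.

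Along genes, H3K9me3 was lower in the first part than further along in both libraries. Over the 14863 protein-coding genes of at least 10 kb, cut into 20 equal parts, islands covered on average 5.83% of the first part in KO and 1.5% in WT, 8.42% and 2.80% of the middle, and 9.06% and 2.76% of the last. Downstream flanks of 20 kb were covered to 10.1% in KO and 2.89% in WT, and upstream flanks to 8.46% and 2.41%. The rise in KO was 4.33 percentage points in the first part and 6.30 points in the last. As a ratio the order was the other way round, 3.89 at the start and 3.28 at the end, and this order turned when zinc finger genes were left out (4.87 and 5.54).

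Zinc finger genes had a profile of their own. In the 530 of at least 10 kb, KO islands covered 34.4% of the first part and 59.9% of part 19, near the end where the zinc finger exons usually lie. WT islands covered 15.5% of the first part and 45.9% of part 18. The rise was 18.9 points in the first part, 13.6 in part 18 and 16.7 in the last part, and the KO over WT ratio was 2.21, 1.30 and 1.40. In the 4 kb upstream of the start, the same genes were covered to 40.2% in KO and 16.3% in WT. In the other 14333 genes, cover was 4.78% in KO and 0.981% in WT in the first part and 7.22% and 1.30% in the last.

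**Figure D3:**
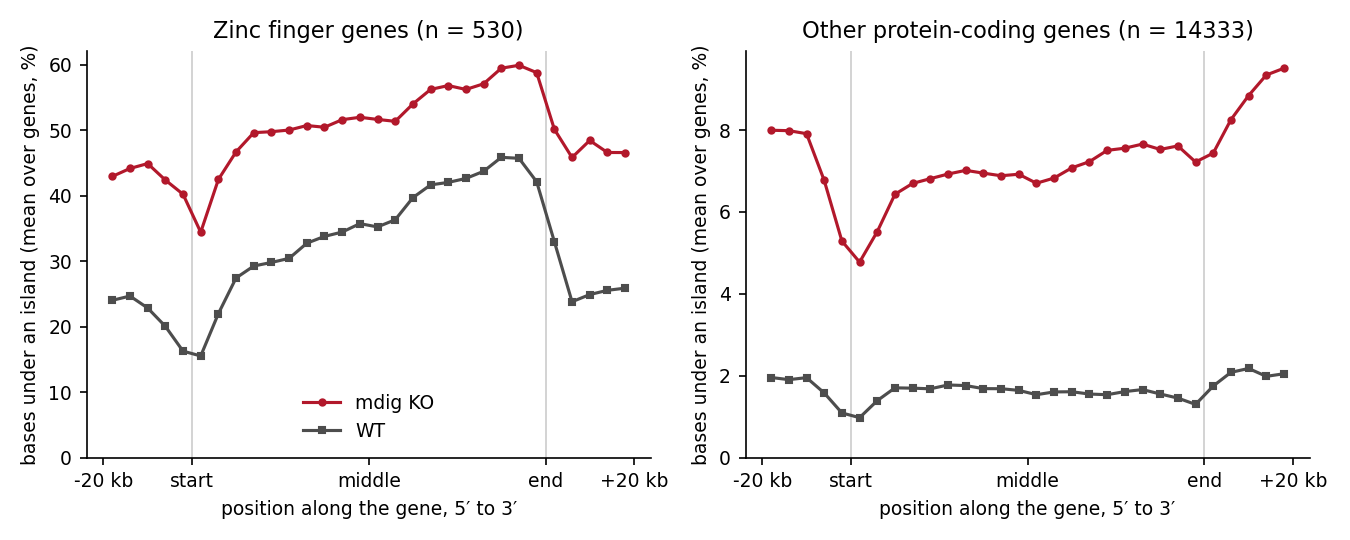
Mean share of bases (%) under H3K9me3 islands along protein-coding genes of at least 10 kb in mdig KO and WT cells, with 20 kb flanks in parts of 4 kb and the gene body in 20 equal parts, for zinc finger genes (left) and the other genes (right; the vertical scales differ). The KO line is above the WT line throughout, and both dip at the start, to 34.4% in KO and 15.5% in WT in zinc finger genes.

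By kind of sequence, cover was 7.04% in KO and 1.42% in WT within 2 kb of gene starts (4.98 times), 9.11% and 2.87% in exons (3.17 times), 6.88% and 1.98% in introns (3.47 times), 9.80% and 2.39% within 20 kb of a gene (4.10 times) and 5.92% and 1.55% further away (3.82 times). Starts were the least covered of these 5 classes in WT and had the largest ratio. An island lay within 2 kb of the start of 1687 genes in KO and not in WT (8.39% of 20098 protein-coding genes), and of 23 in WT and not in KO (0.114%). The gene end was reached in KO alone in 1917 genes (9.54%). At 524 of the 1687 starts (31.1%) H3K4me3 islands were present in both genotypes, a share below the 63.3% of all genes. Counted by genotype, 554 of the 1687 had H3K4me3 in KO and 558 in WT. The largest stretch that could be added within 2 kb of a start, 4 kb, was reached by 35 genes with H3K4me3 there in both genotypes. The first 5 in genome order were ZNF670-ZNF695, ZNF670, ZKSCAN7, ZNF197 and AMIGO3.

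Over whole genes, a gain was counted where the body with 5 kb upstream had at least 2 times as many covered bases in KO as in WT and at least 1 kb more, and a loss in the opposite case. Gains came to 5552 of 20098 protein-coding genes (27.6%) and losses to 176 (0.876%), while 12586 genes had no island in either library. The share went up with gene length. Gains made up 14.7% of genes under 10 kb, 31.2% of those of 30 to 100 kb and 61.9% of those of 300 kb or more. Scaled to the same covered length as WT, KO had 2704 gains and 1606 losses. Of the genes with a gain, 3838 (69.1%) had no KO island within 2 kb of the start.

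The genes of at least 10 kb whose bodies rose most were covered from end to end or nearly so in KO and had little or no H3K9me3 in WT. MEFV, which encodes the inflammasome protein pyrin, had 100% of its body covered in KO and 0% in WT, as did ITIH3, a hyaluronan-binding plasma protein, CD300LB, a receptor of myeloid cells, LRTM2, MAB21L4, BPIFB3 and BPIFB6. AGXT, a peroxisomal enzyme of the liver, had 99% and 0%. These 8 had no H3K4me3 at the start in either genotype. EMC10, a subunit of the endoplasmic reticulum membrane complex, was also covered to 100% in KO and 0% in WT, with 2.26 kb of H3K4me3 at its start in KO and 2.66 kb in WT. ZNF582 had 100% in KO and 1.74% in WT. The largest falls were smaller, and those of ZSCAN30 and TYMS did not meet the rule for a loss. ZNF229 had 19.8% in KO and 61.5% in WT, ZSCAN30 39.8% and 72.9%, TYMS, thymidylate synthase, 25.1% and 46.5%, and DHX32, an RNA helicase, 0% and 17.6%. IL7R, the interleukin-7 receptor, had 0% of its body covered in KO and 39.1% in WT, and 4 kb of H3K4me3 at its start in each.

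Zinc finger genes were covered more in KO, and how their gains stood to those of all genes depended on the factor in the rule. At a factor of 2, 177 of 608 (29.1%) had a gain and 4 a loss, close to the 27.6% and 0.876% of all genes. At a factor of 1.5, gains came to 260 of the 608 and to 6073 of the 20098 protein-coding genes. WT islands already covered 33.7% of zinc finger gene bodies on average, and the part of this cover in the count of gains was not tested. An island lay on 461 of the 608 in KO and on 397 in WT. The median change in body cover was 10.5 points, against 0 over all genes, and the mean cover on chromosome 19 was 70.2% in KO and 47.3% in WT (264 genes). After ZNF582, the largest rises were in ZSCAN5B (80.3% in KO and 0% in WT), ZNF853 (79.7% and 0%) and ZNF83 (91.1% and 15.3%). The clustered protocadherins, neuronal adhesion proteins encoded in 3 neighbouring clusters, differed by cluster. All 15 PCDHA genes had a gain, but they share their last exons and overlap, so they are not separate cases. In the single-exon PCDHB genes, 10 of 16 had a gain, with a mean cover of 54.3% in KO and 11.4% in WT. PCDHB2 had 99.8% and 0%, while PCDHB15 had 100% in each. In the PCDHG cluster 1 of 22 had a gain and the mean was 39.1% in KO and 34.0% in WT. The PCDHG genes overlap in the same way as the PCDHA genes, so they are not separate cases either.

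HOX and keratin genes had no H3K9me3 in their bodies in WT. HOX genes, the homeobox regulators of body axis, are usual targets of Polycomb. Of 39, 15 (38.5%) had a gain and none a loss, against 27.6% and 0.876% of all protein-coding genes. Their mean body cover was 14.7% in KO and 0% in WT, with a median change of 0 points. HOXD had 6 gains in 9 genes and HOXC 5 in 9, HOXA 3 in 11 and HOXB 1 in 10. HOXD9, HOXD12 and HOXB1 were covered to 100% in KO and 0% in WT, HOXC11 to 72.8% and 0%. H3K27me3 covered the HOXC and HOXD genes to 100% on average in KO and in WT, the HOXA genes to 78.1% in KO and 80.2% in WT, and the HOXB genes to 77.6% and 76.0%. It covered none of HOXB1 in either. Of 55 keratin genes, structural proteins of epithelia and hair, 20 (36.4%) had a gain and none a loss, against the same 27.6% and 0.876%. No WT island lay on a HOX or keratin gene or its 5 kb upstream, so no loss could be called in them. Both shares of gains depended on the upstream sequence. Counted over bodies without the 5 kb upstream, gains came to 10 of 39 HOX genes and 15 of 55 keratins. This was close to the share of all genes, 4986 of 20098. KRT74, KRT76 and KRT3 were covered to 100% in KO and 0% in WT, and KRT37 to 95% and 0%. In the cluster on chromosome 12, 14 of 27 had a gain, and H3K27me3 covered the 27 genes to 66.2% in KO and 50.9% in WT. On chromosome 17, 6 of 28 had a gain (21.4%), and H3K27me3 covered the 28 genes to 5.66% in KO and 22.8% in WT. KRT7, KRT8 and KRT18, with H3K4me3 at the start, had no H3K9me3 island in KO or WT. Of the other epithelial markers with H3K4me3 at the start, EPCAM had none either, but CDH1 had 22.8 kb of H3K9me3 in KO and 4.6 kb in WT. Olfactory receptor genes, with a median length of 2.08 kb, were below the background, with 26 gains (6.27%) and 2 losses in 415. Gains made up 14.7% of all genes under 10 kb. Without the 5 kb upstream, 16 of the 415 had a gain. OR2V1, OR1K1, OR10Q1 and OR2C1 were covered to 100% in KO and 0% in WT. OR1K1, with 0.952 kb covered in KO, was too short to meet the 1 kb minimum for a gain.

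Of 30 genes for enzymes and readers of H3K9 methylation, 11 (36.7%) had a gain and 2 a loss, against 27.6% and 0.876% of all genes. Their median length was 53.7 kb, and 31.2% of all genes of 30 to 100 kb had a gain. EHMT1, a methyltransferase that mono- and dimethylates H3K9, had 134.6 kb covered in KO and 15.6 kb in WT, 53.6% and 6.21% of its 251 kb body. KDM4B, a demethylase of H3K9me3, had 49.4 kb and 5.00 kb, and its relative KDM4C 20.6 kb and 4.40 kb. ATRX, a chromatin remodeller at heterochromatin, had 12 kb and 2.40 kb, PPHLN1 16.4 kb and 0 kb, and DNMT3A, a DNA methyltransferase, 8.40 kb and 3.8 kb. SETDB1, SETDB2, TASOR, KDM7A and CBX1 gained 2.40 to 3 kb each. The losses were SMCHD1, with 0 kb in KO and 4.00 kb in WT, and KDM3A, with 0 kb and 1.00 kb. ATF7IP (13.8 kb and 11.6 kb) and MORC2 (8.96 kb and 6.16 kb) met neither rule. With KO scaled to the covered length of WT, gains were left in 2704 of all 20098 genes and in 3 of these 30. They were left in 51 of 608 zinc finger genes, 6 of 53 protocadherins and 7 of 415 olfactory receptors. Among HOX genes they were left in 8 of 39, and among keratins in 14 of 55. The other 15 enzymes and readers, among them SUV39H1, SUV39H2, EHMT2, TRIM28, CBX3, CBX5 and DNMT1, had no island in either library. At 9 of the 11 genes with a gain no KO island lay within 2 kb of the start. TASOR and CBX1 had one there, 2.89 kb and 0.839 kb in KO and 0 kb in WT.

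KO islands were richer in GC than WT islands. The mean was 47.8% in KO and 45.5% in WT (SD over islands 5.75 and 6.22 points), and the genome had 40.9%. KO islands with a WT island had 45.8%, close to WT, and those without had 48.7%. WT islands without a KO island had 41.7%. Islands of 50% GC or more made up 36.9% of the new KO islands and 8.56% of the absent WT islands. Both sets of islands were richer in GC than flanks of the same length, by a median of 4.23 points in KO and 2.97 points in WT. CpG pairs numbered 15.5 per kb in KO islands and 12.5 in WT islands, 0.269 and 0.240 of the number expected from base composition, against 0.236 in the genome and 0.456 in H3K4me3 islands of KO. In KO, GC was higher in the longest islands, with a median of 46.7% at 5 to 10 kb and 49.8% at 20 to 50 kb, while in WT these classes had 44.5% and 45.7%. Islands under 2 kb were also rich in GC, with a median of 50.4% in KO and 46.8% in WT.

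The KO over WT ratio was higher in GC-rich windows than in GC-poor ones. In windows of 100 kb under 36% GC, islands covered 1.53% of bases in KO and 0.722% in WT, a ratio of 2.11. The ratio was 2.91 at 40 to 43% GC, 4.47 at 43 to 47% and 5.78 at 47 to 52%. Above 52% GC, cover was 21.9% in KO and 4.16% in WT, a ratio of 5.26. In windows of 10 kb the lowest class had a ratio of 1.51 and the highest 5.63. Between whole chromosomes there was no such order, with a rank correlation of 0.0553 between the ratio and GC over 23 chromosomes, which share their libraries. No input signal was analysed here, and the part of GC-dependent recovery of DNA was not tested.

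Within 10 kb windows of like GC, windows with H3K27me3 had the higher KO over WT ratio. In windows of 45 to 50% GC that H3K27me3 islands of WT covered to 50% or more, H3K9me3 covered 18.3% in KO and 1.48% in WT, a ratio of 12.4. In windows of that GC without H3K27me3 in WT it covered 15.1% in KO and 3.45% in WT, a ratio of 4.38. At 50% GC or more the windows with H3K27me3 had 37.8% in KO and 5.57% in WT. Those without it had 13.0% and 2.64%. Below 45% GC, in contrast, KO cover was lower in windows with H3K27me3, at 40 to 45% GC 5.18% against 8.16% without it. Of the bases of new KO islands, 33.5% lay under an H3K27me3 island of KO and 28.9% under one of WT, against 13.5% and 10.4% of the bases of WT H3K9me3 islands. Windows of the same GC as the new islands were 18.6% under H3K27me3 of WT. H3K4me3 was scarcer, with 1.79% of the bases of new islands under it in KO, against 8.18% in KO of windows of the same GC. This was not particular to new islands. Of the bases of WT H3K9me3 islands 1.82% lay under H3K4me3 of WT, against 5.07% of windows of their GC. Gains were called in 1110 of 2350 genes (47.2%) with at least 50% of the body under H3K27me3 in WT, in 1139 of 2538 (44.9%) with less, and in 21.7% of the 15210 genes without it. Gene length, with which the share of gains went up, was not held equal here. These are overlaps of islands from separate immunoprecipitations, and whether both marks lay on the same molecules was not tested.

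**Figure D4:**
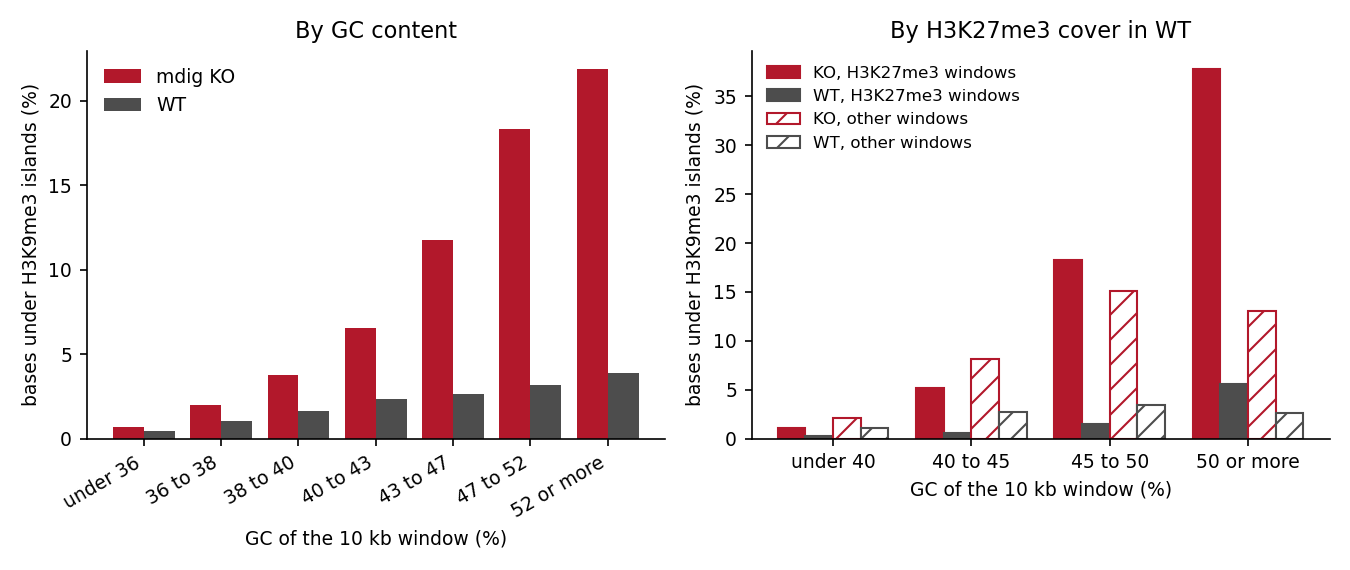
Share of bases (%) under H3K9me3 islands in 10 kb windows in mdig KO and WT cells, by GC content of the window (left) and, in GC classes, for windows with at least 50% of bases under WT H3K27me3 islands (filled) and windows with none (hatched; right). At 50% GC or more KO cover is 37.8% in H3K27me3 windows and 13.0% in windows without the mark.

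Chromosome ends were rich in H3K9me3 in both libraries. The last 5 Mb of the chromosome arms were covered to 22.8% in KO and 5.81% in WT, and the rest to 5.64% and 1.55%. The ends were 7.18% of the known sequence and held 23.8% of the KO bases and 22.4% of the WT bases. The KO over WT ratio was 3.92 at the ends and 3.63 elsewhere, and with ends of 2 Mb the order turned, 3.34 and 3.74. Ends were also richer in GC, 47.2% against 40.4%. In each of the 7 GC classes compared, the ratio was lower at the ends than elsewhere, for example 4.78 and 7.66 above 52% GC. At the outermost 1 Mb, cover was 28.9% in KO and 9.58% in WT. Next to the centromere gaps it was 8.24% in KO and 4.00% in WT within 1 Mb, a ratio of 2.06, against 3.84 beyond 10 Mb. Centromeres themselves are unsequenced in this build.

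The ratio differed between chromosome arms, and the other marks differed with it. Arms were compared on the chromosomes with a sequenced short arm, which leaves out 13, 14, 15 and 22. Over the 37 such arms with more than 10 Mb of known sequence, the KO over WT ratio of H3K9me3 cover had a median of 3.89. It was above 1 in each. It was lowest on 18q, with 2.10% covered in KO and 1.56% in WT (1.35 times), and on 5p, with 8.69% and 5.73% (1.52 times). It was highest on 3p, with 5.88% in KO and 0.545% in WT (10.8 times), and 11q, with 7.60% and 0.920% (8.26 times). On 18q the KO over WT ratio was also the lowest of H3K27me3 (0.934), H3K4me3 (0.804) and H3R8me2a (0.193), and on 3p it was the highest of each (2.29, 1.53 and 11.9). Across the 37 arms the rank correlation of the H3K9me3 ratio was 0.69 with that of H3K4me3, 0.62 with that of H3R8me2a and 0.48 with that of H3K27me3. Arms are not independent samples and all ratios come from the same 2 kinds of cell. The part that an arm-wide difference common to the 4 marks has in the H3K9me3 ratio was not tested. Without 3p, 5p and 18q the genome-wide ratio was 3.79.

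**Figure D5:**
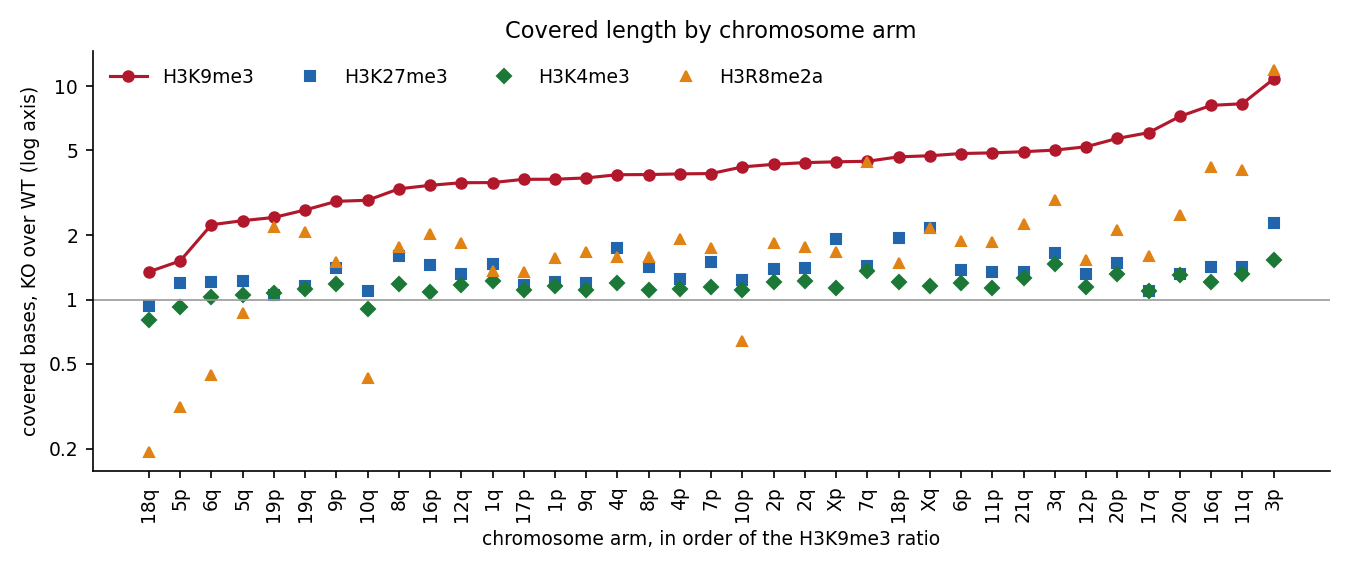
KO over WT ratio of covered bases (log axis) on 37 chromosome arms, in order of the H3K9me3 ratio, for H3K9me3 (line) and the other 3 marks (points), 1 library per mark and genotype. Chromosomes 13, 14, 15 and 22, without a sequenced short arm, are left out. The grey line marks equal cover. All 4 marks are lowest on 18q and highest on 3p.

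At 1 Mb resolution, 2552 of 2846 bins (89.7%) had more H3K9me3 in KO and 163 had less. The largest rise, 60.8 points, was at chr2:240000001-241000000, with 72.4% covered in KO and 11.7% in WT. It holds HDAC4, a histone deacetylase whose 353 kb body was covered to 82.9% in KO and 18.4% in WT, with NDUFA10, OR6B2 and OR6B3. The next were the first Mb of chromosome 7 (63.3% and 11.7%) with PDGFA, SUN1 and PRKAR1B, the Mb from chr11:70000001 (58.4% and 8.42%) with ANO1, FADD, PPFIA1 and CTTN, that from chr10:134000001 (70.5% and 21.3%) with INPP5A and NKX6-2, and that from chr20:60000001 (60.7% and 11.5%) with CDH4, TAF4 and LAMA5. They had 49.9% to 56.0% GC. The 5 largest falls were all on 5p, by 3.44 to 5.02 points, in bins of 34.5% to 39.2% GC. They held CDH9, or AGXT2, PRLR, SPEF2, IL7R, CAPSL and UGT3A1, or no protein-coding gene. Of the 163 bins with less H3K9me3 in KO, 21 lay on 5p (45.7% of its bins) and 21 on 18q (35.6%).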

How the data were processed

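ChIP-seq of BEAS-2B cells was analysed from the single deposited track file, in which the authors listed the islands of 8 libraries and their union of 63759 regions, and the WT input has no islands there. Per the submitters' processing notes, reads were mapped to hg19 with BWA and islands called with SICER 1.1. The deposited values used here are island starts and ends in bp, called per library and not pooled. The members and gene lists were chosen with earlier results of these data known.

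Covered bases, lengths and overlaps were computed in Python 3.11.15 with numpy 2.4.6 and checked with bedtools 2.31.1 and on simulated islands. Genes were the 20098 protein-coding genes of GENCODE 44 lifted to GRCh37. GC came from the GRCh37 primary assembly, which has no repeat marks, so repeats were not analysed. With 1 library per genotype no test was run. Named genes were RIOX2, the genes of the 5 longest islands of each kind and of the 5 with most WT islands, the 10 largest rises and 5 largest falls of body cover (genes of at least 10 kb), the first 5 filled starts, the genes of extreme 1 Mb bins, the 4 largest rises of each list, and the H3K9 list by member; ties were kept in genome order. The genes of filled gaps, PCDHB15, KRT7, KRT8 and KRT18 were chosen after their values were seen. So were the H3K9me3 values of EPCAM and CDH1 and the comparisons by H3K27me3 window. PECAM1, a listed endothelial marker, is not in the annotation used. Alternatives were length, merging, overlap, gene window, scaling and class limits. A few items that these choices name are not reported here.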

Additional observations from a re-analysis of the deposited data

How the results depend on the processing

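No paired analysis was possible because each genotype had 1 library per mark, and the shared replicate number 1 is only a name. Of 84 alternative values, 64 stayed within 1.5 times of the value reported, 16 moved further and 4 turned in direction. The covered ratio stayed at 3.48 to 3.79, the ratio of mean lengths at 1.35 to 1.45 and the GC difference at 2.05 to 2.46 points. WT islands holding 2 or more KO islands fell to 86 where at least 50% of the held island had to be covered and to 82 after merging islands within 1 kb, and joins over splits came to 8.59 and 8.22. With KO scaled to the covered length of WT there were 2704 gains and 1606 losses (1.68 times). Leaving out islands that touched H3R8me2a of the same genotype gave 320 losses and gains 15.5 times as many as losses. KO over WT in the first gene part over that in the last was 1.18, but 0.802 in genes of at least 50 kb, 0.880 without zinc finger genes and 0.765 with both left out. With ends of 2 Mb the ratio at ends over that elsewhere was 0.892. New islands under WT H3K27me3 were 3.20 times the genome share and 1.56 times that of windows of the same GC. The alternatives that left out chromosome 19, arms 3p, 5p and 18q, or both short and zinc finger genes, the GC background and the 10 kb windows were chosen after seeing the data. The causes were not tested. The number of reads behind the islands is unknown, so a sequence without an island is not shown to be free of H3K9me3.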
